A study of Bos taurus with 40 samples.

Results

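The 5 genes described here are COX1 (ENSBTAG00000043561), COX3 (ENSBTAG00000043560), cytb (ENSBTAG00000043550), ND5 (ENSBTAG00000043563) and ND6 (ENSBTAG00000043546), respiratory chain genes of the bovine mitochondrial genome. They were taken by name, as 5 of the 8531 genes listed for at least 1 of the 4 sets of samples, and each had a value in all 40 samples. RNA was sequenced from liver and skeletal muscle biopsies of purebred Simmental bulls and heifers, housed for a feeding trial at about 15 months of age and bred from parents of high or low residual feed intake (RFI). RFI is the feed an animal eats above or below what its weight, growth and fat gain predict, so low RFI animals are the efficient ones. Each combination of sex (bull or heifer), tissue (liver or muscle) and High or Low RFI held 5 samples, from the most extreme animals within each sex. All animals were fed the same diet in the trial, and no agent or genetic change was applied.

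Mitochondria carry a small circular genome that encodes core subunits of the respiratory chain, while most other subunits are encoded in the nucleus and imported. Both strands are copied as long transcripts that are cut into the single mRNAs, so neighbouring genes share their start of transcription but not the stability of the finished mRNA. ND5 and ND6 belong to complex I, which takes electrons from NADH, cytb to complex III, which passes them to cytochrome c, and COX1 and COX3 to complex IV, which hands them to oxygen. The tissues differ in their use of this chain, liver for biosynthesis and nitrogen disposal as well as energy, and muscle for contraction. ND6 is the one protein gene read from the light strand.

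Of the 40 samples, 7 carried the other tissue's profile and were set apart. The share of that profile, over genes with more than a 32-fold difference between tissues and without the 5 genes, was at most 0.822% in the remaining 33 samples. It was 48.6% in bull muscle sample M74, 49.5% in heifer liver sample 2728, 75.4% in heifer liver sample L16, 99.5% in heifer liver sample L58 and 100% in bull muscle samples M12, M6 and 2712. This left 10 bull liver, 7 heifer liver, 6 bull muscle and 10 heifer muscle samples. Depth was 2368340 to 60929308 reads per sample, so that even the lowest value of a member, 78.95 CPM (reads of a gene per 1000000 reads) of ND6 in heifer liver sample L58, rested on 378 reads. The files name genes by Ensembl identifier only, so that the defining markers of hepatocytes, muscle fibres and other cell types could not be looked up and were not used here.

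Liver and muscle differed in COX3, the third core subunit of complex IV, in both sexes. In bull liver COX3 was 4904 CPM in the lowest sample, 6316 CPM in the median and 8360 CPM in the highest, and in bull muscle 7034, 12997 and 48846 CPM. In heifer liver it was 5029, 7758 and 8140 CPM, and in heifer muscle 6423, 9511 and 28702 CPM. The ranges overlapped in both sexes, and the highest muscle samples stood far above any liver sample. On the scale of log2(CPM + 1), after scaling by trimmed means of M values (TMM), COX3 was higher in muscle by 1.28 (SE 0.34, adjusted p = 0.00161, limma) in bulls and by 0.67 (SE 0.32, adjusted p = 0.06, limma) in heifers. The threshold was an adjusted p below 0.1, over all genes tested. The heifer call was lost without liver sample 2704 (adjusted p = 0.107, limma), without muscle sample M70 (adjusted p = 0.104, limma) and with all samples under their labels (adjusted p = 0.114, limma).

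**Figure D1:**
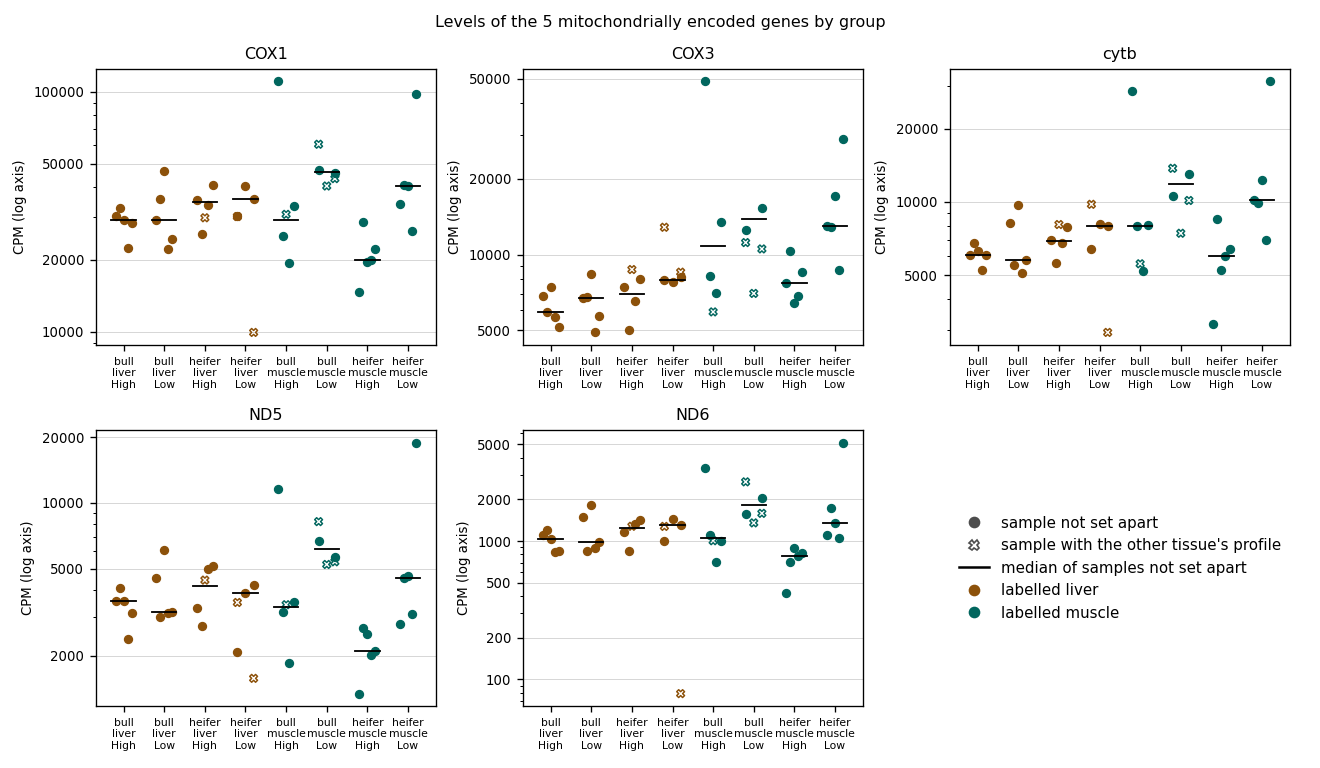
Levels of the 5 genes as CPM on a log axis, for 8 groups of sex, tissue and RFI. Filled circles are samples not set apart, crosses samples with the other tissue's profile and lines the medians of the circles. One bull muscle sample, 2641, and one heifer muscle sample, M70, lie above all others in each panel.

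For cytb, the haem-bearing core of complex III, bull liver ranged from 5108 to 9692 CPM with a median of 6057 CPM, and bull muscle from 5202 to 28520 CPM with a median of 9310 CPM. It was higher in bull muscle by 0.89 (SE 0.34, adjusted p = 0.0234, limma), by 0.57 without muscle sample 2641, and not past the threshold without muscle sample M67 (adjusted p = 0.111, limma). In heifers cytb had a median of 6993 CPM in liver (5621 to 8127 CPM) and 7719 CPM in muscle (3156 to 31217 CPM), and the log2 difference of 0.32 (SE 0.32, adjusted p = 0.383, limma) did not pass. The heifer muscle range thus enclosed the whole heifer liver range.

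COX1, the catalytic subunit of complex IV, did not pass in either sex. Its values were 22096, 29188 and 46793 CPM in bull liver (lowest, median, highest) and 19268, 39667 and 110236 CPM in bull muscle. In heifers they were 25651, 35490 and 40816 CPM in liver and 14623, 27389 and 98060 CPM in muscle. The muscle range enclosed the liver range in both sexes, and the median was higher in muscle in bulls and lower in heifers. The log2 difference between muscle and liver was 0.62 (SE 0.35, adjusted p = 0.114, limma) in bulls and -0.11 (SE 0.32, adjusted p = 0.769, limma) in heifers. For the complex I genes ND5 and ND6 it was 0.60 (SE 0.39, adjusted p = 0.165, limma) and 0.63 (SE 0.34, adjusted p = 0.102, limma) in bulls. In heifers both stood near 0, at -0.03 (SE 0.36) for ND5 and -0.04 (SE 0.32) for ND6.

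In all, 2 of the 5 genes were called higher in muscle in bulls and 1 in heifers. Among all 4416 genes tested, 36.1% were called higher in muscle in bulls and 36% in heifers, and 73.5% and 75.9% were called in either direction, so the members' shares of 2 in 5 and 1 in 5 did not stand out from the background. Calls in bulls depended on the test. With edgeR's quasi-likelihood test on the recovered reads all 5 passed, at log2 differences of 0.82 to 1.60. With the animal tag as a replicate block, which pairs the 2 tissues of 4 animals, COX1 (adjusted p = 0.0564, limma), ND5 (adjusted p = 0.0918, limma) and ND6 (adjusted p = 0.0578, limma) passed as well. The muscle values of all 5 genes in bulls rested in part on sample 2641. Without it the difference was 0.28 for COX1, 0.27 for ND5 and 0.33 for ND6. In bulk tissue, fewer mitochondria-rich cells and less mitochondrial RNA per cell cannot be told apart. The difference between the sexes in the tissue contrast was 0.58 to 0.73 (bulls minus heifers), with an adjusted p of 0.933 for each of the 5 genes (limma), where 0.204% of all genes were called.

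The balance between the genes differed between the tissues, and for COX1 to COX3, both of complex IV, the tissues did not overlap. Ratios between 2 genes of the same sample do not depend on scaling between samples. The ratio of COX1 to COX3 had a geometric mean of 4.69 in bull liver and 2.85 in bull muscle. In heifers it was 4.77 in liver and 2.75 in muscle. As log2 values the bull samples spanned 1.97 to 2.48 in liver and 1.17 to 1.91 in muscle, and the heifer samples 1.94 to 2.38 in liver and 0.93 to 1.77 in muscle. No muscle sample reached a liver sample of its own sex. The difference was -0.72 in bulls (exact permutation test, two-sided, p = 0.000125, adjusted p = 0.00437) and -0.80 in heifers (exact permutation test, two-sided, p = 5.14e-05, adjusted p = 0.0036), adjusted over 70 tests of 10 ratios in 7 comparisons. For ratios the threshold was an adjusted p below 0.05. These are the smallest p-values that the group sizes allow, and both calls passed without any single sample. The permutations treated all samples as separate, although by their tags 4 animals over both sexes gave a sample of each tissue. The study describes both biopsies on the animals selected as high and low RFI, and tags are 4-digit or short. More samples may thus share an animal under different tags, which could not be checked.

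**Figure D2:**
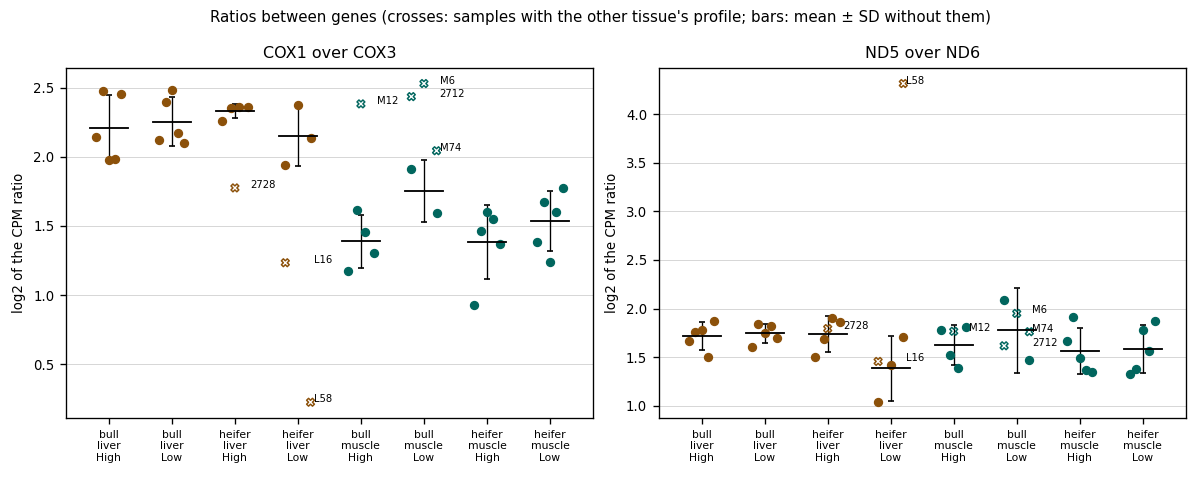
Log2 ratio of CPM in each sample for COX1 over COX3 and ND5 over ND6, by sex, tissue and RFI. Bars are mean ± SD of the circles, and crosses with tags are the samples set apart. For COX1 over COX3 all liver circles lie above all muscle circles of the same sex, and for ND5 over ND6 the tissues overlap.

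COX3 was also higher in muscle relative to the complex I genes. COX3 over ND6 was 2.55 ± 0.27 (SD, n = 10) in bull liver and 3.28 ± 0.43 (SD, n = 6) in bull muscle on the log2 scale (exact permutation test, adjusted p = 0.0109). In heifers it was 2.58 ± 0.21 (SD, n = 7) and 3.30 ± 0.52 (SD, n = 10) (exact permutation test, adjusted p = 0.0415). The heifer call did not pass in 9 of 17 fits that left out 1 sample. COX3 over ND5 was 0.82 ± 0.28 (SD, n = 10) in bull liver and 1.61 ± 0.45 (SD, n = 6) in bull muscle (exact permutation test, adjusted p = 0.014). In heifers the difference was 0.74 and did not pass (exact permutation test, adjusted p = 0.0818), nor did COX3 over cytb, which was 0.36 higher in muscle (exact permutation test, adjusted p = 0.0605). The latter passed in bulls at 0.43 (exact permutation test, adjusted p = 0.0415), though not in 9 of 16 fits that left out 1 sample.

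Ratios with cytb also shifted. COX1 over cytb was lower in muscle by 0.43 on the log2 scale in heifers (exact permutation test, adjusted p = 0.006), while the difference of -0.29 in bulls did not pass (exact permutation test, adjusted p = 0.0845). In bulls, cytb over ND6 was 2.57 ± 0.13 (SD, n = 10) in liver and 2.87 ± 0.15 (SD, n = 6) in muscle (exact permutation test, adjusted p = 0.0146), and cytb over ND5 was 0.35 higher in muscle (exact permutation test, adjusted p = 0.0466). The last passed in 2 of 16 fits that left out 1 sample. In heifers cytb over ND6 differed by 0.36 (exact permutation test, adjusted p = 0.088) and cytb over ND5 by 0.37 (exact permutation test, adjusted p = 0.269), neither past the threshold. In all, 6 of 10 ratios passed in bulls and 3 of 10 in heifers.

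Among COX1, ND5 and ND6, no difference in proportion between the tissues was detected. The log2 difference between tissues was 0.07 in bulls and -0.06 in heifers for COX1 over ND5, 0.01 and -0.07 for COX1 over ND6, and -0.05 and -0.02 for ND5 over ND6. Each was smaller than the SD between samples of a tissue, and the adjusted p was 0.833 or higher (exact permutation test). ND5 and ND6 overlap by 17 bases on opposite strands, and the strand setting of the counting is not given in the sources used here. Reads of the overlap thus cannot be assigned to one of them. Since both strands are copied as long transcripts, RNA of the opposite strand may also be counted over the rest of both genes. Its part in their values was not tested.

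The ratios of the samples set apart were read against both tissues. COX1 over COX3 was 2.38 in bull muscle sample M12, 2.53 in M6, 2.43 in 2712 and 2.04 in M74, all above the highest muscle value of 1.91, and M6 was also above the highest liver value. Heifer liver sample 2728 had 1.77 and L16 had 1.23, both inside the muscle range and below the lowest liver value of 1.94. All 7 samples thus lay outside the range of the tissue on their label. The value of 0.23 in L58 lay below all other samples of either tissue. In that sample ND6 was 78.95 CPM against 421 CPM in the lowest muscle sample, and only 1 of 10 ratios was inside the liver range and 4 inside the muscle range. With all samples under their labels, no ratio passed between tissues in either sex.

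The animal tagged 2712 had samples under both tissue labels. The sample labelled muscle exceeded the liver sample by 0.37 for COX1, 0.42 for COX3, 0.50 for cytb, 0.43 for ND5 and 0.56 for ND6 on the log2 scale of CPM. Its liver sample held the highest value of all 5 genes in bull liver, at 46793 CPM for COX1. In 4 other animals with the same tag in both tissues, neither sample was set apart. Muscle over liver was 1.86 for COX1 and 2.83 for COX3 in bull 2641, 0.95 and 1.13 in bull 2723, -0.40 and 0.35 in heifer 2704, and 0.17 and 0.72 in heifer 2632, as log2 ratios of CPM. COX3 thus had a higher ratio than COX1 in each of the 4 animals.

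Per kilobase of gene length (RefSeq, assembly ARS-UCD2.0), COX1, COX3 and cytb followed in that order above ND5 and ND6 in 32 of 33 samples. In bull liver the levels were 19471 ± 4719 CPM per kb for COX1, 8126 ± 1376 for COX3, 5687 ± 1262 for cytb, 2011 ± 573 for ND5 and 2093 ± 611 for ND6 (SD, n = 10). In bull muscle they were 30306 ± 21338, 22474 ± 20041, 10726 ± 7383, 2974 ± 1924 and 3100 ± 1854 CPM per kb in the same order (SD, n = 6). The means of ND5 and ND6 lay close together relative to the SD between samples. Within single samples, ND6 stood above ND5 in 24 and below it in 9, an order that was not tested. Heifer muscle sample 2628 was the exception at the top, with COX3 above COX1. Of the sum of the 5 genes, COX3 made up 13.5% in bull liver, 13.5% in heifer liver, 20.0% in bull muscle and 20.5% in heifer muscle, and COX1 62.9, 64.1, 56.4 and 55.6% in that order.

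Between bulls and heifers, none of the 5 genes passed in either tissue. In liver the log2 difference, bulls minus heifers, was -0.26 for COX1 (SE 0.15, adjusted p = 0.46, limma) and -0.25 for COX3 (SE 0.13, adjusted p = 0.385, limma), and -0.20 for cytb, -0.04 for ND5 and -0.20 for ND6. Among all genes tested in liver 4.49% were called. In muscle it was 0.35 for COX3 to 0.58 for ND5 with an adjusted p of 0.889 for each (limma), where 0.0933% of genes were called. Without bull sample 2641 the muscle values were -0.02 for COX3 and 0.26 for ND5. No ratio between the genes passed by sex, with differences of -0.20 to 0.14 in liver and -0.15 to 0.11 in muscle (exact permutation test, lowest adjusted p = 0.636).

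**Figure D3:**
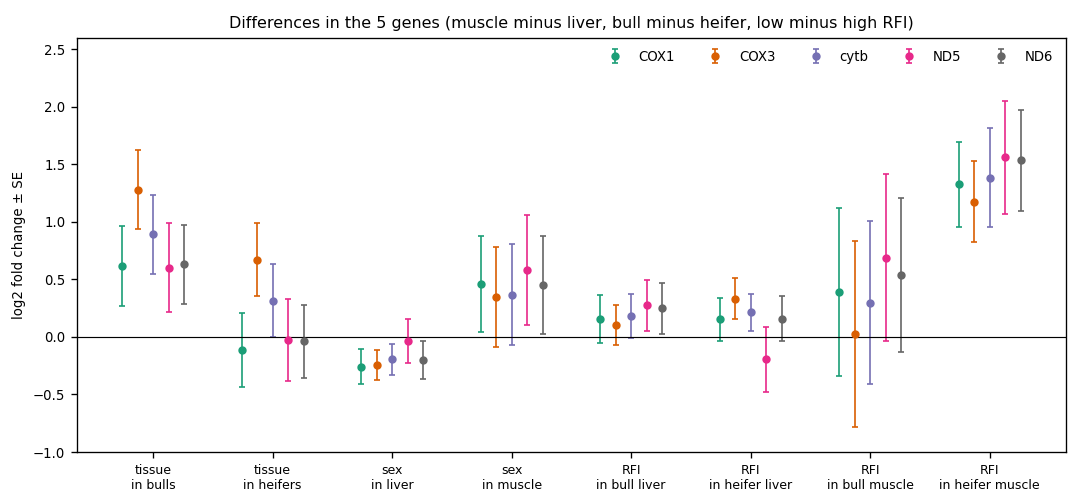
Log2 fold change ± SE of each gene by comparison, from limma on log2(CPM + 1) without the samples set apart. COX3 is the highest point in both tissue contrasts. The RFI difference in heifer muscle, on which the study listed these genes, is a description.

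The main question of the study was which genes differ between high and low RFI. In bull liver COX1 was 30302, 32713, 29155, 22319 and 28268 CPM in the high RFI samples 2641, 2701, 2703, 64 and 68. In the low RFI samples 2659, 2669, 2712, 2713 and 2723 it was 29221, 35600, 46793, 22096 and 24363 CPM. The groups overlapped throughout, with the highest and the lowest sample both in the low RFI group. The log2 differences (low minus high) were 0.15 for COX1, 0.11 for COX3, 0.18 for cytb, 0.27 for ND5 and 0.25 for ND6, with an SE of 0.17 to 0.22 and an adjusted p of 0.805 or higher (limma). Without sample 2712 they were 0.01, 0.02, 0.06, 0.12 and 0.09. Of 7363 genes 0 (0%) were called, 555 had an unadjusted p below 0.05, and edgeR called 0. The study's own edgeR test, with tagwise dispersion and over more genes, did call genes in bull liver, none of them members.

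In heifer liver COX1 was 35490, 25651, 33664 and 40816 CPM in the high RFI samples 2670, 2704, 2705 and L60, and 30306, 40310 and 35707 CPM in the low RFI samples 2632, 2660 and L59. COX3 was 7429, 5029, 6557 and 7968 CPM and 7901, 7758 and 8140 CPM in the same samples, so that the low RFI values were close together at the upper end of the high RFI range. The log2 difference was 0.33 for COX3 (SE 0.18, adjusted p = 0.9996, limma), 0.22 for cytb, 0.16 for ND6, 0.15 for COX1 and -0.20 for ND5. None passed. Of 7231 genes 0 (0%) were called, 181 had an unadjusted p below 0.05, and edgeR called 0.

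In bull muscle, 4 high and 2 low RFI samples remained. COX1 was 110236 CPM in high RFI sample 2641, 25100 in 2666, 19268 in M57 and 33360 in M65, and 46997 in low RFI sample 2723 and 45975 in M67. Both low RFI samples thus lay above all high RFI samples but 2641. For COX3, low RFI sample 2723 at 12488 CPM lay below high RFI sample M65 at 13506 CPM. ND5 followed the order of COX1 at 11604, 3175, 1850 and 3515 CPM in high RFI and 6717 and 5635 CPM in low RFI. The log2 differences were 0.39 for COX1, 0.03 for COX3, 0.30 for cytb, 0.69 for ND5 and 0.54 for ND6, with an SE of 0.67 to 0.81 and an adjusted p of 0.896 or higher (limma). Without 2641 they were 1.04, 0.75, 0.93, 1.33 and 1.13. With edgeR the values were -0.15, -0.63, -0.19, 0.16 and 0.12, so the direction was not settled for COX1, COX3 and cytb. Of 5963 genes 0 (0%) were called, 123 had an unadjusted p below 0.05, and edgeR called 0.

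In heifer muscle the study listed these 5 genes for a difference by RFI, so their values there are a description with no test. COX1 was 14623, 28576, 19483, 19987 and 22054 CPM in the high RFI samples 2628, 2647, 2704, M69 and M73. In the low RFI samples 2632, 2690, 2724, M62 and M70 it was 34004, 40786, 40385, 26201 and 98060 CPM. Only M62 lay inside the high RFI range.

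COX3 in heifer muscle was 7693, 10358, 6423, 6820 and 8525 CPM in high RFI and 13044, 12821, 17104, 8663 and 28702 CPM in low RFI, in the same order of samples. For cytb the values were 3156, 8485, 5279, 5999 and 6422 CPM and 10159, 9856, 12344, 6953 and 31217 CPM, and M62 again lay inside the high RFI range. ND5 was 1338, 2679, 2507, 2003 and 2092 CPM in high RFI and 2787, 4523, 4647, 3099 and 18920 CPM in low RFI. ND6 was 421, 710, 891, 776 and 822 CPM and 1113, 1746, 1352, 1048 and 5153 CPM. The groups of ND5 and ND6 did not overlap. With low RFI above high RFI this held for 2 of 5547 genes (0.0361%), which are ND5 and ND6 themselves. The study listed both for a difference in these samples, so the share is no test.

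The log2 differences in heifer muscle were 1.32 for COX1 (SE 0.37), 1.17 for COX3 (SE 0.35), 1.38 for cytb (SE 0.43), 1.56 for ND5 (SE 0.49) and 1.53 for ND6 (SE 0.44). Without M70 they were 0.96, 0.87, 0.98, 1.03 and 1.07. With scaling by library size only they were 1.07, 0.92, 1.12, 1.30 and 1.28, while the median of all genes stood at -0.24. Of 5547 genes 0 (0%) were called by limma, 91 had an unadjusted p below 0.05, and edgeR called 0. The log2 ratio of COX1 to COX3 ran from 0.93 to 1.60 in the high RFI samples and from 1.24 to 1.77 in the low RFI samples, so that the ranges overlapped.

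The RFI difference was also compared between the sexes. In muscle, the difference in bulls minus that in heifers was -0.90 for ND5 to -1.18 for COX3 (SE 0.83 to 0.95), and -0.25 for ND5 to -0.47 for cytb without bull sample 2641. It was chosen through heifer muscle and is no independent test. With limma 0 of 5358 genes (0%) were called, 44 had an unadjusted p below 0.05, and edgeR called 0. In liver it was -0.23 for COX3 to 0.47 for ND5 (adjusted p of 0.959 or higher, limma). Of 7045 genes 0 (0%) were called, 256 had an unadjusted p below 0.05, and edgeR called 0. No ratio passed by RFI in bull liver (differences of -0.17 to 0.05), heifer liver (-0.36 to 0.53) or bull muscle (-0.66 to 0.36), with a lowest adjusted p of 0.549 (exact permutation test). In bull muscle the smallest p that 4 against 2 samples allow is 0.0667, so no ratio could pass there. In heifer liver, with 3 low against 4 high RFI samples, it is 0.0286, and in bull liver, with 5 against 5, it is 0.00794. After adjustment over 70 tests such a p passes only if many other tests are as low. The ratio tests by RFI in these sets thus could not show whether a difference is absent.

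The spread between animals is given as a description, and in muscle it rested on 1 sample of each sex. The SD within RFI groups, on the scaled log2 scale, was 1.07 to 1.31 in bull muscle and 0.62 to 0.90 in heifer muscle. It was 0.29 to 0.41 in bull liver and 0.15 to 0.45 in heifer liver. Without bull muscle sample 2641 the SD in bull muscle was 0.33 for COX1, 0.45 for COX3, 0.35 for cytb, 0.41 for ND5 and 0.36 for ND6. COX1 and ND6 then fell below their values over all bull liver samples. Without bull liver sample 2712, however, the liver values were 0.30 for COX1 and 0.34 for ND6, below those of muscle. Without heifer muscle sample M70 the SD in heifer muscle was 0.36 for COX1, 0.42 for COX3, 0.49 for cytb, 0.34 for ND5 and 0.35 for ND6, and ND5 was then below its value in heifer liver. The median gene had 0.30 in bull muscle, 0.44 in heifer muscle, 0.21 in bull liver and 0.24 in heifer liver. In bull muscle the SD of each member exceeded that of 98.5 to 99.2% of genes tested, and in heifer muscle that of 74.7 to 90.6%. Without 2641 these shares were 74.5 to 89.0% in bull muscle, and without M70 they were 33.7 to 59.5% in heifer muscle. They moved the other way without heifer muscle sample 2628, to 91.0 to 98.0%, as the SD of the median gene there fell to 0.34. In heifer liver the SD of ND5 exceeded that of 89.0% of genes. Without heifer liver sample 2704 the SD there was 0.13 for COX1, 0.093 for COX3, 0.094 for cytb and 0.16 for ND6.

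**Figure D4:**
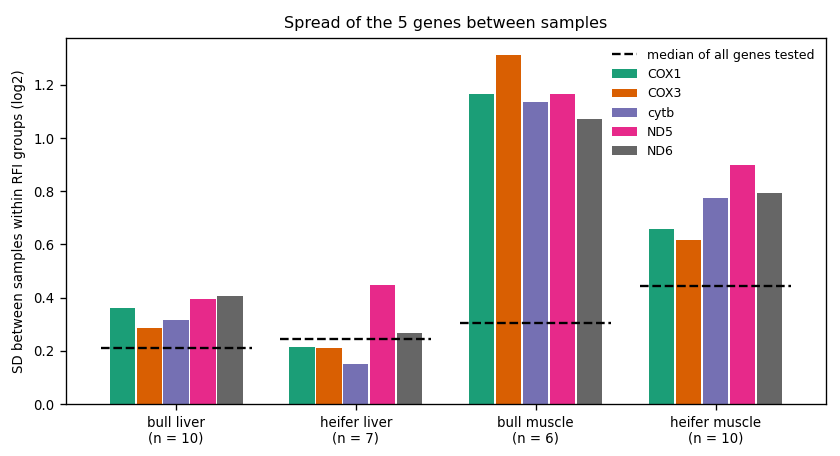
SD between samples within RFI groups, in log2 units, for each gene and set of samples. Dashed lines are medians of all genes tested. The bars are tallest in bull muscle (1.07 to 1.31), where the median gene has 0.30, but without bull sample 2641 they would stand at 0.33 to 0.45.

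Together the 5 genes took up 3.61 to 7.28% of the reads in bull liver and 3.99 to 6.33% in heifer liver. In muscle they took 3.41 to 20.3% in bulls and 2.72 to 18.2% in heifers. The upper ends were 2 single samples, bull 2641 of the high RFI group at 20.3% and heifer M70 of the low RFI group at 18.2%. The next highest were 8.20% in bulls and 7.58% in heifers. Depth in these 2 samples, 19705071 and 30300667 reads, was within the range of the other muscle samples for 2641 and above it for M70. The share of liver profile in the 16 muscle samples not set apart was at most 0.822%, and RNA quality was not given for single samples, so its part in these values was not tested.

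Across muscle samples the values of the 5 genes varied together. In bull muscle the Pearson r over the 10 pairs was 0.92 to 0.99 and the Spearman rho 0.83 to 1 (n = 6). All 10 pairs passed by Pearson r and 8 by rho at an adjusted p below 0.05, over 60 exact or sampled permutation tests. Without the 2 samples farthest from the median, r was 0.71 to 0.99. In heifer muscle r was 0.89 to 0.99 (n = 10), as a description. In bull liver it was 0.72 to 0.96 (n = 10), with all 10 pairs past the threshold by r and 9 by rho in permutation tests, and 0.36 to 0.99 without the 2 farthest samples.

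In heifer liver the pairs were less uniform, at r of 0.03 to 0.93 and rho of -0.32 to 0.75 (n = 7), and 4 pairs passed by r and 0 by rho in exact permutation tests. Without the 2 farthest samples r ran from -0.52 to 0.86. Values on the CPM scale share each sample's depth and library composition, whose part in these correlations was not tested.

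Outside the 5 genes, the genes most like their mean log2 value were found in each tissue among all genes tested. Over the 17 liver samples the highest r was 0.89, for ENSBTAG00000043577, of 7040 genes. Over the 16 muscle samples it was 0.91, for ENSBTAG00000043568, of 5353 genes, and 0.87 without bull sample 2641 and heifer sample M70 (n = 14). The median r of all genes was 0.02 in liver and 0.01 in muscle. These 2 genes are not named in the tables used here, but their identifiers lie close in number to those of the members. Whether they also belong to the mitochondrial genome could not be looked up. For comparison, each member against the mean of the other 4 gave 0.73 to 0.94 in liver and 0.94 to 0.99 in muscle. Without 2641 and M70 the muscle values were 0.86 for COX3 to 0.99 for COX1 (n = 14).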

How the data were processed

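The authors made libraries with an mRNA kit and sequenced them single-end. Per the submitters' processing notes, STAR 2.5.1 (build UMD3.1) and HTSeq 0.6.1p2 gave counts, which the authors deposited as CPM. Every deposited CPM value was a whole multiple of the worth of 1 read (100% within 0.01 reads), which gave the depth and the recovered reads. In bull muscle, 1359 rows repeating a bull liver sample were dropped, and 1 stray letter was removed from a heifer liver value.

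A gene entered a fit when 5 or more of its samples exceeded 1 CPM, which all 5 members did. Values were scaled by TMM and fitted as log2(CPM + 1) with limma 3.58.1 (trended variance, Benjamini-Hochberg adjustment over all genes) in R 4.3.3. The edgeR 4.0.16 quasi-likelihood test on recovered reads was an alternative, as were other scalings, pseudocounts of 0.1 and 5 CPM, at least 10 reads in every sample, adjusted p < 0.05, tag style (4-digit or short), all samples under their labels, leaving out each sample, and a replicate block. The SDs without 1 sample and the likeness without 2 samples were added after seeing the data. The block pairs samples with the same animal tag, and the consensus correlation was 0.284. Tissues of 1 animal under different tags, if any, stay unpaired. The study tested its counts with edgeR. Ratios and correlations used permutation tests (scipy 1.17.1). The scripts were tested on simulated data.

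The members and lists were chosen with earlier results of these data known. The genes named are the 5 members and, in each tissue, of the 5 genes most like them in r the first only, since these carry no name in the tables used. Gene names came from the study, gene lengths from RefSeq. The 17 lists of other genes and the cell type markers were not analysed here, since 0 identifiers matched symbols in the reference table. Samples sharing a group are different animals by their tags.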

Additional observations from a re-analysis of the deposited data

Results flagged for a closer look

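In 96 sets of values (groups of 4 or 5 samples, without those set apart), 17 samples or ratios lay farther from the others than Dixon's 95% critical value allows. About 1 in 20 sets is expected by chance if values are normally distributed, and values of 1 sample are not independent. Levels and shares of reads were taken on the linear scale, where high values stand out more, and ratios as log2 values. The levels were not tested on the log2 scale of the fits, where fewer might be flagged. Bull muscle sample 2641, high RFI, accounted for 6 of them, with COX1 at 110236 CPM, COX3 at 48846 CPM, cytb at 28520 CPM, ND5 at 11604 CPM, ND6 at 3390 CPM and 20.3% of all reads on the 5 genes. Heifer muscle sample M70, low RFI, accounted for another 6, with COX1 at 98060 CPM, cytb at 31217 CPM, ND5 at 18920 CPM, ND6 at 5153 CPM, 18.2% of all reads, and a log2 COX3 to cytb ratio of -0.12.

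The other 5 were single ratios on the log2 scale. COX1 over COX3 was 2.26 in heifer liver sample 2670, against 2.35 to 2.36 in its group. COX1 over ND5 was 3.56 in bull liver sample 2669 and 2.96 in heifer muscle sample 2704. COX1 over ND6 was 5.06 in bull liver sample 68. COX3 over cytb was 1.29 in heifer muscle sample 2628, against at most 0.41 in its group.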

How the results depend on the processing

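The number of genes whose tissue contrast differed between the sexes (9) became 1 with all samples under their labels and 16 with the replicate block, which pairs the tissues of 4 animals and, of the members, also called COX1, ND5 and ND6 in bulls. Sex in liver (316 genes) became 175 at an adjusted p below 0.05 and 25 with all samples. Sex in muscle (5) became 2 with library size only. With all samples, 0 ratios passed by tissue in bulls and 0 in heifers, and COX1 over ND5 in heifers became 0.064. Scaling by library size alone moved the median of all genes by tissue to -0.147 in bulls and -0.146 in heifers.

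Directions of small differences changed. By tissue in heifers, COX1, ND5 and ND6 were 0.0133, 0.20 and 0.16 with edgeR and 0.12, 0.0574 and 0.35 with all samples. For sex by RFI in liver, COX1 was 0.0307 with library size only, 0.00197 with scaling without the 5 genes, 0.00372 with at least 10 reads, 0.0473 with edgeR and 0.14 with all samples, and cytb 0.00683 with edgeR. By RFI in bull liver, COX1 was -0.000367 and COX3 -0.0578 with tag style. In heifer liver, COX1 was -0.00882 and ND6 -0.43 with all samples. In bull muscle, COX3 was -0.0164 with library size only, -0.00128 with median of ratios, -0.013 with scaling without the 5 genes, -0.63 with edgeR and -0.0526 with all samples, and edgeR gave COX1 -0.15 and cytb -0.19. Mean r was 0.904 in heifer muscle with RFI means removed and 0.917 in bull muscle with all samples. The cause was not tested.

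Leaving out 1 sample at a time, genes called ranged from 5 to 23 for tissue by sex, 0 to 4 for sex by RFI in liver, 0 to 9 for sex in muscle, 0 to 7 for RFI in bull liver and 0 to 2 in heifer liver, and ratios passing by tissue in heifers from 2 to 5. By tissue in heifers, COX1 ranged from -0.25 to 0.00871, ND5 from -0.25 to 0.0926 and ND6 from -0.22 to 0.0819. For sex by RFI in liver, COX1 ranged from -0.15 to 0.14, cytb from -0.17 to 0.0799 and ND6 from -0.0733 to 0.23. ND5 by sex in liver ranged from -0.17 to 0.0498, COX3 by sex in muscle from -0.019 to 0.53, and ND5 by RFI in heifer liver from -0.36 to 0.0933. By RFI in bull muscle, COX3 ranged from -0.39 to 0.75 and cytb from -0.0926 to 0.93. By tissue, COX1 over ND6 in bulls ranged from -0.0425 to 0.0807, ND5 over ND6 from -0.14 to 0.00239 in bulls and -0.11 to 0.0363 in heifers, and COX1 over ND5 in heifers from -0.14 to 0.0466. Mean r ranged from 0.927 to 0.981 in bull muscle, 0.708 to 0.881 in bull liver, 0.892 to 0.961 in heifer muscle and 0.278 to 0.808 in heifer liver. Under the other alternatives, 651 values kept their direction and side of the threshold or their size, 24 reversed, 17 became weaker, 9 stronger and 2 moved. Bull muscle held 6 samples, 2 of them low RFI.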
